A study of Mus musculus with 6 samples.

Results

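Matrix metalloproteinases and their tissue inhibitors, the TIMPs, were followed as 10 genes: Mmp8, Mmp9, Mmp12, Mmp13, Mmp14, Mmp19 and Mmp27, and Timp1, Timp2 and Timp3. They were taken by gene symbol from a table of 56691 genes, where each symbol had a single row. All 10 passed the filter on low counts that left 14113 genes for testing. The cells were mouse macrophages obtained from bone marrow with M-CSF, the macrophage growth factor, in both groups. They were sorted after culture with mEC25, which the labels call a cancer line, and their RNA was sequenced in bulk. In the 3 contact libraries the macrophages had grown together with mEC25 cells, and in the 3 transwell libraries they had been kept apart from them. The question was which genes differ between touching and separated macrophages. The labels give no strain, age or duration. Nor do they tie replicates to separate animals or cultures, so p-values here set a group difference against the spread between these libraries, which may be technical.

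Metalloproteinases are zinc enzymes that cut collagen, elastin and other matrix proteins, and most are secreted as inactive precursors. TIMPs are small secreted proteins that bind the active site and block it, so the balance of enzyme and inhibitor is commonly used to describe the capacity of a tissue to degrade matrix. Macrophages are a major source of several of these enzymes, among them Mmp12, the macrophage elastase.

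Libraries held between 18173192 and 22563835 counts, contact libraries more than transwell ones. The macrophage markers were abundant in both groups: all 12 were tested, their summed level was 14740 to 16690 FPKM in contact and 16230 to 17310 FPKM in transwell libraries, and 4 were higher and 5 lower in contact. FPKM scales a count by exonic length and library total. Of 20 epithelial markers 16 were tested and all 16 were higher in contact, with a summed level of 941 to 1659 FPKM in contact and 5.22 to 5.74 FPKM in transwell libraries. Cldn4 and Grhl2 had no transwell count. Krt5, a basal keratin gene, stood at 336, 511 and 281 FPKM in contact and at 0.14, 0.08 and 0.07 FPKM in transwell libraries, and Krt6a, Krt17 and Trp63 were likewise near 0 in transwell. Of 11 fibroblast markers 9 were tested, with 6 higher and none lower (summed level 24.8 to 48.4 FPKM in contact and 5.16 to 11.4 FPKM in transwell), and of 13 neutrophil markers 12 were tested, with 6 higher and 1 lower (891 to 1276 FPKM in contact and 634 to 1341 FPKM in transwell). Beside these marker counts, 21.4% of all genes tested were higher and 16.1% lower in contact, by the test named below. In bulk RNA, fewer cells of a type and less RNA per cell cannot be told apart, and what RNA of other cells contributed to the results below was not tested, except where values are given.

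All 3 inhibitor genes and a pair of enzyme genes, Mmp13 and Mmp14, were higher in contact, and the other 5 enzyme genes were lower. Of the 10 members 5 were called higher and 5 lower with edgeR's quasi-likelihood test at a Benjamini-Hochberg adjusted p under 0.05. Among all genes tested 37.5% were called, 21.4% higher and 16.1% lower. The share of all calls that were higher moved with the scale, from 57.1% here to 72.1% and 74.1% in limma on log2(FPKM + 1) and log2(FPKM + 0.1), and to 41.1% after quantile normalization, whereas the members' split stayed at 5 and 5 on these scales and, when limma was run on log2(FPKM + 1) with no filter, also with 72.1% of calls higher, became 4 higher against 5 lower. Groups did not overlap for any of the 10 members, against 51.2% of the genes tested. Their median log2 change, contact minus transwell as throughout, was 0.01, beside 0.03 for all genes. The members were chosen with earlier results of these data known, so these shares describe the members and test nothing.

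**Figure D1:**
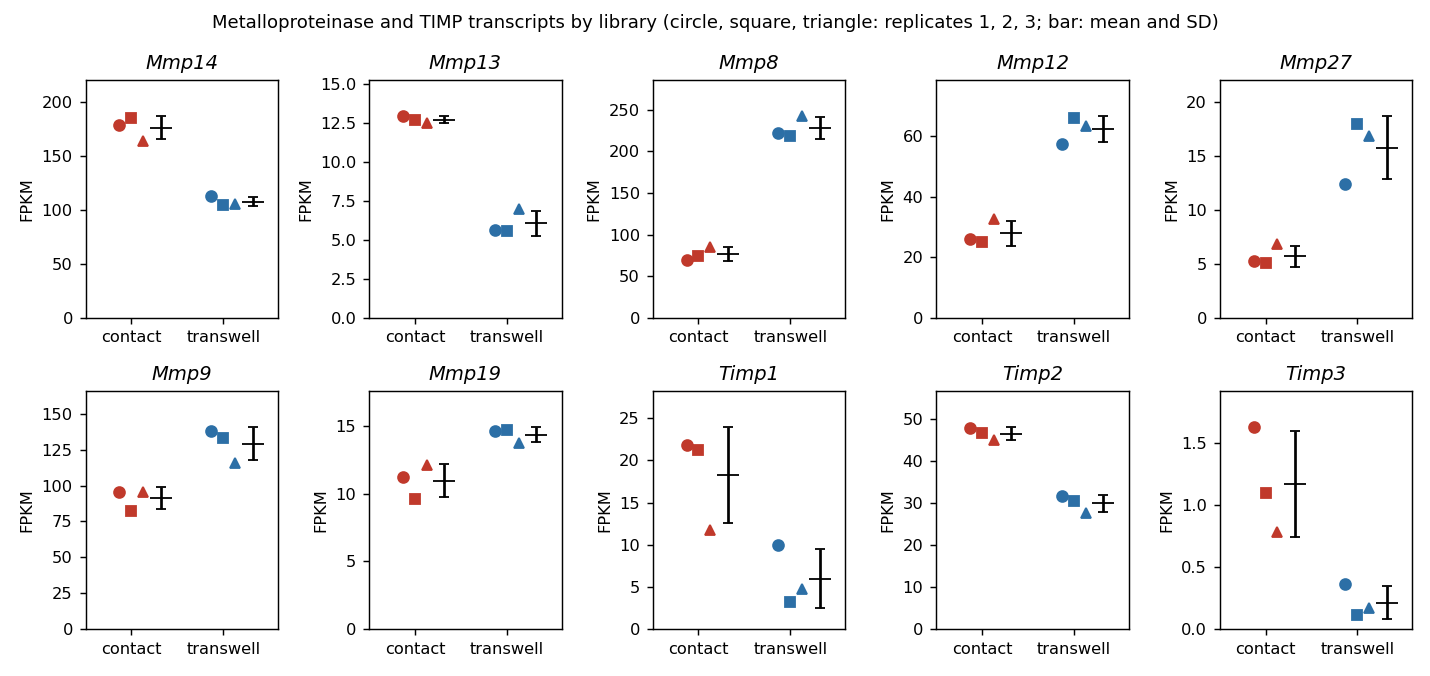
FPKM of the 10 members (vertical axes, each from 0) in the 3 contact and 3 transwell libraries, with symbols for replicates and bars for mean and SD. The groups are apart in every panel; Timp1 and Timp3 have the widest spread relative to their level.

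Mmp14 encodes a collagenase anchored in the cell membrane, which also activates the precursor of the gelatinase Mmp2. It lies on chromosome 14 at 54431612 to 54445364 on the plus strand (GRCm38, GENCODE M21, as for all positions given), and like the other 9 members is annotated as protein-coding. Its level was 178, 185 and 164 FPKM in contact libraries and 113, 105 and 105 FPKM in transwell libraries. Every contact library was above every transwell library. The rise was 0.59 ± 0.07 on the log2 scale (SE, here and below; edgeR adjusted p = 0.00015), or 1.51-fold. Mmp14 was the most abundant of the 7 enzymes in all 3 contact libraries and the third in all 3 transwell libraries.

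Mmp8, the collagenase best known from neutrophil granules, held the first place in transwell libraries. Its level was 69.9, 74.6 and 85.3 FPKM in contact and 223, 218 and 243 FPKM in transwell libraries (chromosome 9, 7558456 to 7568485, plus strand). The highest contact value was far below the lowest transwell value. The log2 change was -1.69 ± 0.09 (adjusted p = 1.4e-06), so that transwell libraries held 3.22-fold more, and 0.772% of all genes tested had a fall at least as large. The place of Mmp8 among tested genes ordered by FPKM was 637 in contact and 195 in transwell libraries. The summed neutrophil markers, in transwell replicates 1, 2 and 3, stood at 1.53, 0.75 and 0.72 times their group mean, and Mmp8 at 0.98, 0.96 and 1.07 times. Most of that sum came from S100a8, at 412, 223 and 207 FPKM, and S100a9, at 643, 252 and 246 FPKM in these libraries. The part of neutrophil RNA in the Mmp8 values was not tested.

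Mmp12, the macrophage elastase, stood at 26.1, 25.1 and 32.7 FPKM in contact and 57.6, 66.0 and 63.5 FPKM in transwell libraries (chromosome 9, 7344381 to 7369499, plus strand). It fell by 1.27 ± 0.11 on the log2 scale (adjusted p = 1.7e-05). Mmp27, a less studied member of the family, stood at 5.25, 5.02 and 6.79 FPKM in contact and 12.4, 17.98 and 16.9 FPKM in transwell libraries (chromosome 9, 7571396 to 7581885, plus strand). Its log2 change was -1.58 ± 0.16 (adjusted p = 5.3e-05). In both genes the highest of the 3 contact values was in replicate 3, and in Mmp27 transwell replicate 1 was lowest of its group.

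Mmp13, which encodes the main interstitial collagenase of rodents, went the other way. Its level was 13.0, 12.7 and 12.5 FPKM in contact and 5.62, 5.58 and 6.97 FPKM in transwell libraries (chromosome 9, 7272514 to 7283331, plus strand). The contact libraries lay within a narrow band above all transwell libraries, with a log2 change of 0.95 ± 0.11 (adjusted p = 9.3e-05). It was the seventh of the 7 enzymes in every transwell library and the fifth in every contact library.

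Mmp9, gelatinase B, which cuts denatured collagen and basement membrane collagen, and Mmp19, which acts on basement membrane proteins, fell by less. Mmp9 stood at 95.6, 82.2 and 95.5 FPKM in contact and 138, 133 and 116 FPKM in transwell libraries (chromosome 2, 164940780 to 164955850, plus strand), a log2 change of -0.62 ± 0.09 (adjusted p = 0.00063). Mmp19 stood at 11.2, 9.62 and 12.1 FPKM in contact and 14.6, 14.7 and 13.8 FPKM in transwell libraries (chromosome 10, 128790910 to 128800824, plus strand), a log2 change of -0.50 ± 0.10 (adjusted p = 0.0035). Mmp9 was second among the 7 enzymes in all 6 libraries. Exons of Mmp19 share 789 bases with Tmem198b on the other strand, a gene with 625 counts in contact and 497 in transwell libraries, and since the strand setting is not given, reads from those bases cannot be assigned to one gene.

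Among the inhibitors Timp2 was the most abundant and the least variable. It stood at 47.9, 46.8 and 44.9 FPKM in contact and 31.6, 30.5 and 27.7 FPKM in transwell libraries (chromosome 11, 118301069 to 118355740, minus strand), a log2 change of 0.52 ± 0.08 (adjusted p = 0.00049). Every contact library was higher than every transwell library. Timp2 made up 71 ± 6.23% of the summed TIMP FPKM in contact and 83.5 ± 7.48% in transwell libraries (mean ± SD of 3).

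Timp1, a soluble inhibitor that is induced in many inflammatory settings, stood at 21.9, 21.2 and 11.8 FPKM in contact and 9.95, 3.22 and 4.73 FPKM in transwell libraries (chromosome X, 20870166 to 20874735, plus strand). The gap between groups was small, 11.8 FPKM in the lowest contact library against 9.95 FPKM in the highest transwell library. The log2 change was 1.49 ± 0.37 (adjusted p = 0.011). The call ended without contact replicate 2 (log2 change 1.38, adjusted p = 0.052) and without transwell replicate 3 (1.34, adjusted p = 0.054). It also ended in limma without a filter (1.54, adjusted p = 0.072), the highest adjusted p over 17 alternatives. The lowest, 7.7e-18, came from edgeR with no low-count filter. There the adjusted p of Mmp8 and Timp3 also fell far, to 9.6e-68 and 2.1e-22. The next lowest for Timp1 was 0.0006, without transwell replicate 1, where the change was 2.09.

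Timp3, which stays bound to the matrix and also blocks some ADAM proteases, was the lowest of the 10 members. It stood at 1.63, 1.10 and 0.78 FPKM in contact and 0.36, 0.11 and 0.17 FPKM in transwell libraries, on 628 and 97 counts in all (chromosome 10, 86300372 to 86349506, plus strand). The log2 change was 2.34 ± 0.40 (adjusted p = 0.0015), and 2.95 without transwell replicate 1. On the log2(FPKM + 1) scale, which compresses low values, it was 0.83, and 0.56 after quantile normalization, both called. Exons of Timp3 share 1733 bases with Syn3 on the other strand, which had 22 counts in contact and 18 in transwell libraries.

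**Figure D2:**
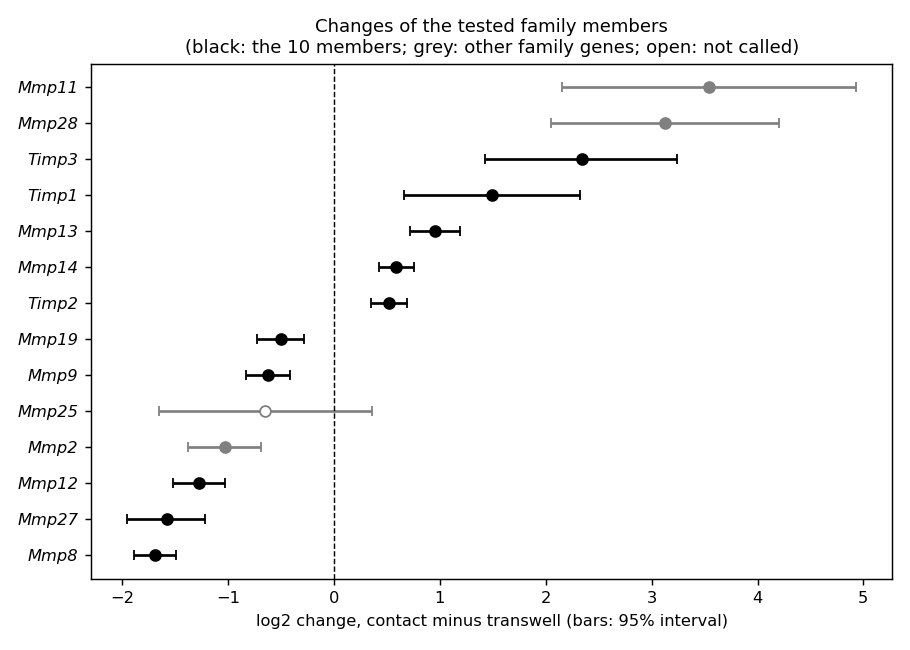
Log2 change, contact minus transwell (horizontal axis), with 95% intervals from edgeR for the 10 members in black and the 4 other tested family genes in grey, where an open symbol marks a gene that was not called. The 5 members right of 0 run from 0.52 (Timp2) to 2.34 (Timp3) and the 5 left of it from -0.50 (Mmp19) to -1.69 (Mmp8); the point of Mmp11 rests on 3 transwell counts.

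Within each group Timp1, Timp3 and the fibroblast markers were highest in the same library, and in contact also lowest in the same library. In contact replicates 1, 2 and 3 Timp1 stood at 1.20, 1.16 and 0.64 times the mean of its group, and Timp3 at 1.39, 0.94 and 0.67 times. The summed fibroblast markers stood at 1.25, 1.11 and 0.64 times their mean in those libraries. In transwell replicates 1, 2 and 3 Timp1 stood at 1.67, 0.54 and 0.79 times, Timp3 at 1.69, 0.52 and 0.80 times and the fibroblast markers at 1.57, 0.72 and 0.71 times. Most of the fibroblast sum came from Col1a1, Col1a2 and Sparc, at 44.3, 39.7 and 22.3 FPKM in contact and 9.92, 3.94 and 4.16 FPKM in transwell libraries. Transwell replicate 1 was thus the highest of its group for all 3, and contact replicate 3 the lowest of its group. The neutrophil markers showed the same order in contact, at 1.21, 0.95 and 0.84 times, and were highest in transwell replicate 1, at 1.53 times, where the epithelial markers stood at 1.06 times. Collagen genes of the fibroblast list, Col1a1 and Col1a2, were higher in contact (log2 change 1.78 and 1.65, edgeR adjusted p = 0.008 and 0.0091), calls that ended in limma on log2(FPKM + 1) without a filter (adjusted p = 0.065 and 0.078). Sparc, a matrix-binding protein gene, was also higher (3.30). Dcn, Fap and Thy1 of the same list, named after their values were seen, were not called (log2 changes 0.41, 0.13 and 0.73, adjusted p = 0.45, 0.84 and 0.2). Fap was highest in contact replicate 3, at 0.16, 0.08 and 0.18 FPKM in contact, and Thy1 was lowest in transwell replicate 1, at 0.19, 0.37 and 0.22 FPKM in transwell libraries, so these did not follow the order of the sum. The part of RNA from other cell types in the Timp1 and Timp3 values was not tested.

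The members other than Timp1 and Timp3 varied less between the contact libraries than the epithelial markers did. Over those 3 libraries the epithelial markers ranged from 0.76 to 1.35 times their group mean. Mmp13 ranged from 0.98 to 1.02 times, Mmp14 from 0.93 to 1.05 times and Timp2 from 0.97 to 1.03 times, and the widest range was that of Mmp27, from 0.88 to 1.19 times. Contact replicate 2, the library with the most epithelial marker RNA, had the highest Mmp14 value, and Mmp14 ranked over the 3 contact libraries as these markers did, but it had neither the highest Mmp13 nor the highest Timp2 value. No library of mEC25 cells by themselves was used here, and their part in the contact values was not tested.

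**Figure D3:**
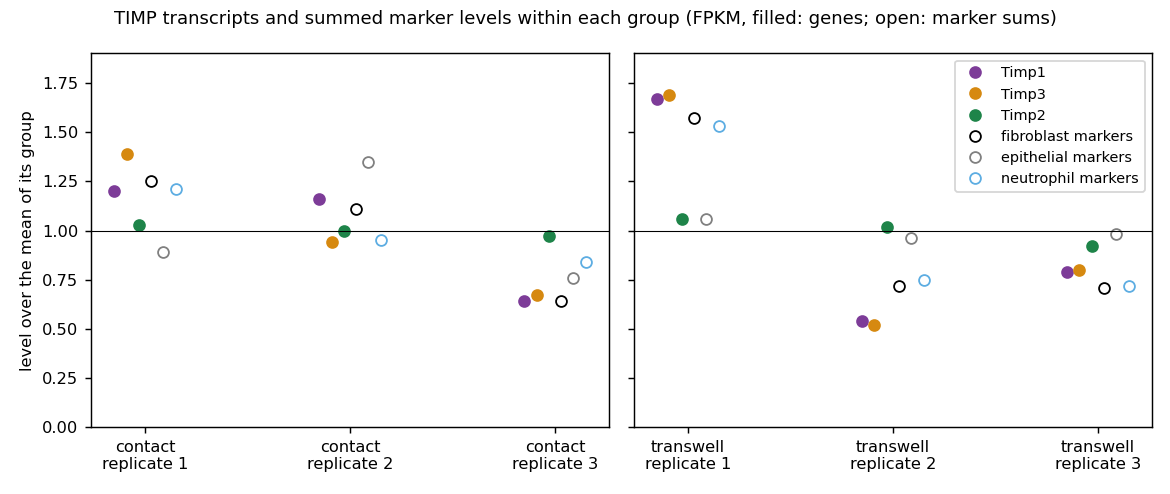
Level of Timp1, Timp2, Timp3 and of 3 marker sums divided by the mean of its own group (vertical axis, no unit) in each library, contact at left and transwell at right. Timp1, Timp3 and the fibroblast markers are low in contact replicate 3 (0.64, 0.67 and 0.64) and high in transwell replicate 1 (1.67, 1.69 and 1.57), while Timp2 stays between 0.92 and 1.06.

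The order of the enzymes differed between the groups. Mmp14 made up 43.9 ± 3.49% of the summed FPKM of the 7 enzymes in contact and 19.1 ± 0.769% in transwell libraries, and Mmp8 made up 19.1 ± 1.68% in contact and 40.5 ± 2.16% in transwell libraries, as mean ± SD of 3 libraries. The Mmp14 to Mmp8 ratio was 2.55, 2.49 and 1.92 in contact and 0.505, 0.479 and 0.434 in transwell libraries. The share of Mmp9 was 22.7 ± 1.65% in contact and 22.9 ± 2.1% in transwell libraries, a difference smaller than the spread between replicates.

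The summed FPKM of the 7 enzymes was 399, 395 and 409 in contact and 564, 561 and 565 in transwell libraries. For the 3 inhibitors the sum was 71.4, 69.1 and 57.5 FPKM in contact and 41.9, 33.9 and 32.6 FPKM in transwell libraries. The enzyme sum was thus lower and the inhibitor sum higher in all 3 contact libraries than in any transwell library. Without Mmp8 the other 6 enzymes summed to 329, 320 and 324 FPKM in contact and 341, 342 and 323 FPKM in transwell libraries, and the groups overlapped. These sums hold opposite changes, as Mmp13 and Mmp14 were higher in contact and Mmp9, Mmp12, Mmp19 and Mmp27 lower. FPKM is scaled by library total, without the TMM factors of the edgeR tests (1.035 to 1.052 in contact, 0.953 to 0.97 in transwell). Division by those factors lowers every contact sum and raises every transwell sum. The sums without Mmp8 are then apart, so their overlap holds for FPKM without the factors only. Enzyme over inhibitor was 5.59, 5.71 and 7.11 in contact (mean 6.14 ± 0.845) and 13.4, 16.5 and 17.4 in transwell libraries (15.8 ± 2.07, SD, n = 3). With Mmp8 alone left out, a setting chosen after seeing the data, the ratio was 4.61, 4.63 and 5.63 in contact and 8.13, 10.1 and 9.91 in transwell libraries. With Mmp8 and Timp2 left out, the most abundant enzyme and inhibitor over all 6 libraries, the means were 18 in contact and 67.2 in transwell libraries, where the inhibitor sum is that of Timp1 and Timp3. These are ratios of transcript levels per length and say nothing of protein amounts.

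Mmp14 and Timp2, whose proteins form a complex that activates the Mmp2 precursor, kept nearly the same ratio. It was 3.72, 3.96 and 3.65 in contact and 3.56, 3.43 and 3.81 in transwell libraries, and the groups overlapped. Mmp9 over Timp1, the inhibitor that binds the precursor of Mmp9, was 4.37, 3.87 and 8.11 in contact and 13.9, 41.4 and 24.6 in transwell libraries, without overlap. With 3 libraries a group an exact two-sided permutation test cannot go below p = 0.1, and no test was run on ratios of members chosen with results known.

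**Figure D4:**
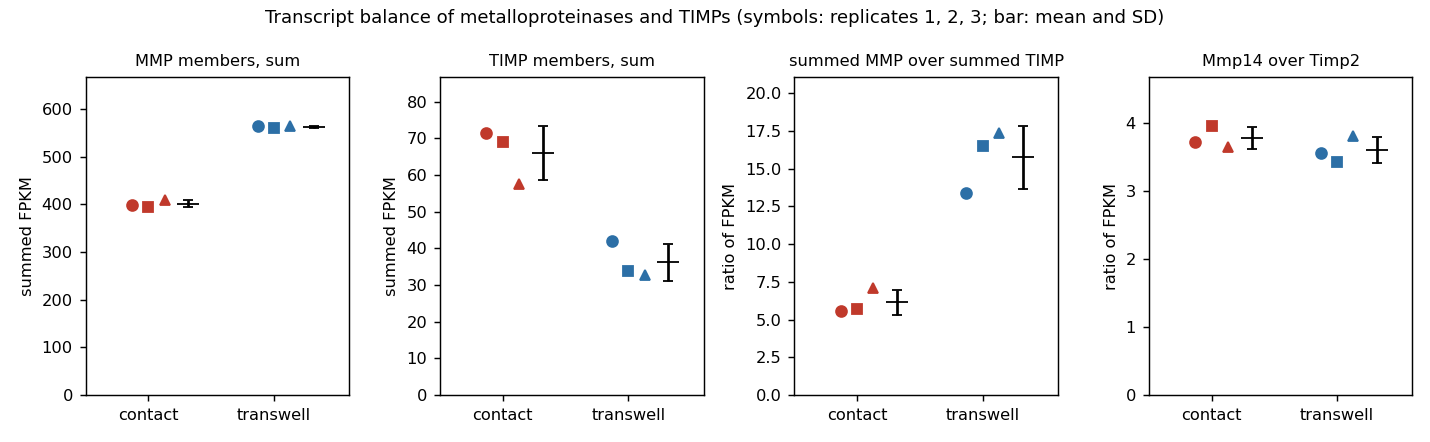
From left to right, summed FPKM of the 7 enzymes, summed FPKM of the 3 inhibitors, their ratio and the ratio of Mmp14 to Timp2, by library with mean and SD (vertical axes from 0). The first ratio lies between 5.59 and 7.11 in contact and between 13.4 and 17.4 in transwell libraries, and the ratio of Mmp14 to Timp2 overlaps between the groups.

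Mmp13, Mmp12, Mmp8 and Mmp27 are neighbours. They lie in a cluster of 9 protein-coding metalloproteinase genes within 427 kb of chromosome 9, from Mmp13 at one end to Mmp7 at the other. Of these 9, only the 4 members passed the low-count filter. Mmp12, Mmp8 and Mmp27 summed to 101, 105 and 125 FPKM in contact and 293, 302 and 323 FPKM in transwell libraries, while Mmp13, next to Mmp12, was higher in contact. The Mmp13 to Mmp12 ratio was 0.497, 0.507 and 0.382 in contact and 0.0976, 0.0845 and 0.11 in transwell libraries. Exons of Mmp12 share 157 bases with those of Mmp1b on the other strand, which had 7 counts in contact and 0 in transwell libraries.

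The genes that flank the cluster had smaller log2 changes than the 4 members within it. On the side of Mmp13, Dcun1d5, a gene for a factor of cullin modification, had a log2 change of 0.09 ± 0.08 (edgeR adjusted p = 0.43) and Dync2h1, a dynein heavy chain gene, 0.37 ± 0.23 (adjusted p = 0.24). On the side of Mmp7, Tmem123 rose by 0.33 ± 0.09 (adjusted p = 0.017) and the apoptosis inhibitor gene Birc3 by 0.33 ± 0.10 (adjusted p = 0.024), and Birc2 had 0.18 ± 0.12 (adjusted p = 0.3). Differences between neighbours were not tested.

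**Figure D5:**
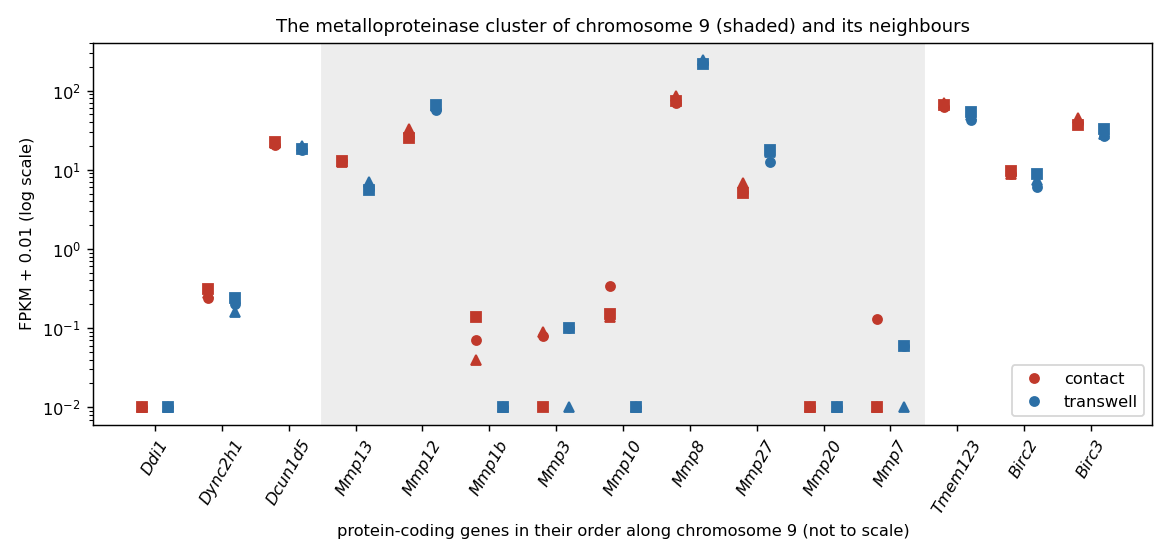
FPKM plus 0.01 on a log axis for the protein-coding genes of the chromosome 9 cluster (shaded) and 3 neighbours on each side, in chromosomal order and not to scale, with contact left of transwell for each gene and symbols for replicates. Mmp13 is higher in contact, Mmp12, Mmp8 and Mmp27 are lower, and the cluster genes between and beyond them lie below 1 FPKM.

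Because neighbours in 1 cluster moved in opposite directions, their promoters are shown, from RefSeq on GRCm38.p6, with 250 bases before and 50 after the annotated start. Capitals mark matches on either strand to the AP-1 motif TGANTCA, the PEA3 motif AGGAAG, both long described in metalloproteinase promoters, and the TATA motif TATAAA. The windows are chr9:7272264-7272563 for Mmp13, chr9:7347124-7347423 for the second of 2 annotated Mmp12 starts, chr9:7558179-7558478 for Mmp8 and chr9:7571146-7571445 for Mmp27, all on the plus strand.
Mmp13: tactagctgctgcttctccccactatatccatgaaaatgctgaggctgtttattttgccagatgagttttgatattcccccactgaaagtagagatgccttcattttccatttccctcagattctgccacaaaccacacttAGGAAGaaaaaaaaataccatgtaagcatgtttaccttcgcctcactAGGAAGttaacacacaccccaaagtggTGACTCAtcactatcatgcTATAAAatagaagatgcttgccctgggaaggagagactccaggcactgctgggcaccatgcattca
Mmp12: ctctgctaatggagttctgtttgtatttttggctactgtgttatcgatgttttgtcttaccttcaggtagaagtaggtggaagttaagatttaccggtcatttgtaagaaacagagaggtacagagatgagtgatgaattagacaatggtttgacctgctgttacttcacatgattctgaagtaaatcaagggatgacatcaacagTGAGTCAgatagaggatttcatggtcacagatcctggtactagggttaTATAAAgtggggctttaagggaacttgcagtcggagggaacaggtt
Mmp8: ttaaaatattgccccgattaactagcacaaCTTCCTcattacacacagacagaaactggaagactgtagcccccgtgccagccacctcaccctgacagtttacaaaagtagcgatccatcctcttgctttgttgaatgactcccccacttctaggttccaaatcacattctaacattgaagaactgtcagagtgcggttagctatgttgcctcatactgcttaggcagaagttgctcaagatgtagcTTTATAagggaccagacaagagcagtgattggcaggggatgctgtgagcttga
Mmp27: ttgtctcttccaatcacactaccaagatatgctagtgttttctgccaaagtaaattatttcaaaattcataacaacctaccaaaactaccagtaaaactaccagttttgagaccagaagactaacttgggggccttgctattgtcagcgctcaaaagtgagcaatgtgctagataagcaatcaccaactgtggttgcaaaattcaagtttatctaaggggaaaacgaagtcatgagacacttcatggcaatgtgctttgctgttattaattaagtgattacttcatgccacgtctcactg

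Of all 32851 promoter windows of this length 7.81% held the AP-1 motif, 35.4% the PEA3 motif and 13.6% the TATA motif. The Mmp13 window, of the gene that was higher in contact, held an AP-1 match with its first base at position -35 from the start, PEA3 matches at -109 and -62 and a TATA match at -16. The second Mmp12 window, of a gene that was lower, also held an AP-1 match, at -44, and a TATA match at position 5. The first Mmp12 window, chr9:7344147-7344446 and not printed, held a PEA3 match at -87 but no AP-1 or TATA match. Mmp8 held a PEA3 match at -220 and a TATA match at -3, both on the minus strand, and Mmp27 had none of the 3 motifs. No matches overlapped each other. Promoters of 8 members were matched by symbol, and of the remaining ones Timp1 held PEA3 matches at -175, -99 and 41, Mmp14 one at -209, Timp3 one at -204 and Timp2 no match. The AP-1 matches lay in the Mmp13 window and, for Mmp12, only at its second start. A match is only a match of letters. Which start was used in these libraries, and whether any factor bound there, was not tested.

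Of the 17 other genes of the family, 4 were tested, 2 were higher and 1 lower in contact, with a median log2 change of 1.24 beside 0.03 for all genes. The shares over all genes tested were 21.4% higher and 16.1% lower. Mmp2, gelatinase A, the target of the complex of Mmp14 and Timp2, stood at 3.93, 3.26 and 2.79 FPKM in contact and 7.22, 5.44 and 6.20 FPKM in transwell libraries (log2 change -1.03 ± 0.15, edgeR adjusted p = 0.00057), so it fell where Mmp14 and Timp2 rose. Mmp28, known from epithelium as epilysin, was low at 0.59, 0.62 and 0.28 FPKM in contact and 0.07, 0.06 and 0.03 FPKM in transwell libraries (log2 change 3.13 ± 0.48, adjusted p = 0.0007, and 0.50 on the log2(FPKM + 1) scale). Mmp11, stromelysin-3, had 49 counts in contact and 3 in transwell libraries (adjusted p = 0.0016), a call that ended after quantile normalization (adjusted p = 0.14). Mmp25, a membrane-anchored enzyme of leukocytes, had a log2 change of -0.65 with a 95% interval from -1.65 to 0.36 (adjusted p = 0.3). Among the 13 that were too low to test, Mmp10 had 23 counts in contact and 0 in transwell libraries. With the transwell group set to a floor of 3 counts in sum, contact was 6.49-fold higher. That floor allows for counting error of the transwell zero only, not of the 23 contact counts or for the spread between libraries. Mmp1a, Mmp20 and Mmp21 had no count in any library.

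Genes of plasminogen activation, the protease cascade that can activate metalloproteinase precursors, were higher in 7 of 11 tested cases and lower in none (median 0.50). Over all genes tested 21.4% were higher and 16.1% lower. Plaur, the urokinase receptor gene, stood at 79.7, 78.4 and 78.4 FPKM in contact and 43.3, 32.4 and 38.5 FPKM in transwell libraries, a rise of 0.93 ± 0.10 (edgeR adjusted p = 9.6e-05). Serpine2, a protease inhibitor gene, rose by 2.55 ± 0.30 and Anxa2, a plasminogen receptor component that epithelial cells also express, by 0.50 ± 0.12. Contact values of both ranked as the epithelial marker level did, at 2.20, 3.23 and 1.88 FPKM for Serpine2 and 142, 183 and 133 FPKM for Anxa2, and the part of epithelial RNA was not tested.

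Of 12 genes for receptors, convertases and membrane partners of metalloproteinases 8 were tested, with 4 higher and 1 lower (median 0.18). All genes tested had 21.4% higher and 16.1% lower. Cd44, a hyaluronan receptor that docks Mmp9 and Mmp14 at the cell surface, stood at 131, 134 and 132 FPKM in contact and 75.2, 79.3 and 79.5 FPKM in transwell libraries (log2 change 0.65 ± 0.06, edgeR adjusted p = 3.4e-05). The tetraspanin gene Cd82 rose by 0.85 ± 0.09, and Furin, the convertase that activates Mmp14, by 0.32 ± 0.08 (adjusted p = 0.012), a call that ended without contact replicate 1 (0.29) or transwell replicate 3 (0.26). Lrp1, an endocytic receptor that clears metalloproteinases, fell by 0.47 ± 0.09 (adjusted p = 0.0022).

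Of 16 ADAM and ADAMTS genes, related metalloproteinases that shed surface proteins or cut proteoglycans, 12 were tested, with 6 higher and 2 lower (median 0.45). The shares over all genes tested were 21.4% higher and 16.1% lower. Adamts1, which cuts the proteoglycan versican, stood at 3.18, 4.50 and 2.86 FPKM in contact and 0.05, 0.04 and 0.10 FPKM in transwell libraries (log2 change 5.63 ± 0.30, edgeR adjusted p = 1.4e-06), and its contact values ranked as the epithelial marker level did. Adam19 rose by 0.63 ± 0.11. Adam15 was lower at 28.2, 25.8 and 25.6 FPKM in contact and 50.2, 46.1 and 45.9 FPKM in transwell libraries (-0.95 ± 0.08), and Adam8, a leukocyte sheddase gene, fell by 0.38 ± 0.08, a call that ended in limma on log2(FPKM + 0.1) (-0.26, adjusted p = 0.059).

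Genes of matrix substrates were higher in 16 of 17 tested cases of 18, and lower in none (median 1.78). Over all genes tested 21.4% were higher and 16.1% lower. Col17a1, a hemidesmosome collagen gene, stood at 5.23, 7.96 and 4.11 FPKM in contact and 0, 0 and 0.01 FPKM in transwell libraries. The laminin genes Lama3 (4.18, 5.70 and 3.4 FPKM in contact, 3 transwell counts in all) and Lamb3 (log2 change 5.82) were higher in contact as well, and all 3 of these genes had their highest value in contact replicate 2, the library with the highest epithelial marker level. Lamb3 is itself one of the epithelial markers, and Col1a1, Col1a2 and Col3a1 are shared with the fibroblast markers.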

How the data were processed

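For 6 libraries the authors deposited counts and FPKM by Ensembl gene, per the file headers; 99.93% of FPKM values with a count above 100 lay within 1% of the value from count, exonic length and library total. Builds named in the submitters' processing notes are GRCm38 and mm10. Strand setting, aligner, counter and annotation: not given in the sources used here. Coordinates of the table matched GENCODE M21 for 1435 of 52073 shared gene IDs, so positions come from GENCODE M21 by ID. Precision is that of 3 libraries a group. Replicate pairs differed by a chi-square of 5.895 to 22.745 per degree of freedom, so none were duplicates.

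Groups and replicate numbers came from the sample titles. Counts were filtered with filterByExpr (minimum count 10), scaled with TMM and tested with edgeR's quasi-likelihood test (edgeR 4.0.16, R 4.3.3), two-sided, with Benjamini-Hochberg adjustment over all 14113 genes and a threshold of 0.05. A standard error is the absolute log2 change over the square root of F. The test was tried on simulated data. Alternatives used limma 3.58.1, DESeq2 1.42.0, other scalings and filters, a replicate block, removal of epithelial markers and each library left out. Named genes were the 10 members, the tested genes among the other metalloproteinases and TIMPs, and, of each other list, up to 4 called genes with the largest change and at least 1 FPKM in the higher group, of which 2 are not reported here; flanking genes of the cluster, low or overlapping genes and those of the closing section were added after their values were seen. Members and lists were chosen with earlier results of these data known. Motifs were matched as letters on both strands. Figures were drawn with matplotlib 3.10.9.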

Additional observations from a re-analysis of the deposited data

How the results depend on the processing

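All 10 members kept their direction under each of the 17 alternatives that gave a value, and 9 kept their call; Timp1 lost it in 3. Timp3 gave no value among genes with a mean of at least 1 FPKM. Ranges of the log2 change were -1.78 to -1.55 for Mmp8, -0.70 to -0.50 for Mmp9, -1.41 to -1.14 for Mmp12, 0.85 to 1.07 for Mmp13, 0.54 to 0.71 for Mmp14, -0.58 to -0.37 for Mmp19, -1.73 to -1.32 for Mmp27, 1.15 to 2.09 for Timp1, 0.46 to 0.64 for Timp2 and 0.56 to 2.95 for Timp3. Over 45 named genes 741 of 756 gene values kept direction and side of the threshold, 14 lost the call and 1 gained it, Mmp25 after quantile normalization (-0.30). Genes called lower over the whole table numbered 2270, and 1435, 1269 and 1284 in limma on log2(FPKM + 1), on log2(FPKM + 0.1) and without a filter. With a pseudocount of 0.1 the median change of all genes was 0.14, against 0.03, and all 10 members stayed on their side of that median. Of the other family genes 5 were called higher without a low-count filter, 0 of 1 tested with a mean of at least 1 FPKM, and 1 after quantile normalization, where 2 were called lower. Of the ADAM and ADAMTS genes 3 of 8 were called higher with a mean of at least 1 FPKM, fewer being tested, and 1 lower with a pseudocount of 0.1. Enzyme over inhibitor became 18 in contact and 67.2 in transwell libraries without Mmp8 and Timp2, and 4.96 in contact and 9.38 in transwell libraries without Mmp8 alone, chosen after seeing the data. Where a change is not due to fewer or more genes tested, the cause was not tested. Same-numbered libraries deviated with correlations of -0.083, -0.445 and 0.056, and no library correlated best with its own number. With 3 libraries a group these correlations cannot tell whether the numbers pair the samples. Timp1, Timp3, the fibroblast markers and the neutrophil markers were each highest in replicate 1 of both groups. With the replicate block 2994 genes were called higher and 2130 lower, and 5 members each way. In that edgeR fit the adjusted p was 0.0018 for Timp1 and 0.00012 for Timp3, against 0.011 and 0.0015 without the block. Without one library the call count ranged from 2465 to 3093 higher and from 1577 to 2217 lower. Low counts kept 13 family genes out of the test, and Mmp11 rests on 3 transwell counts.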

Other observations

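Of the 12 tested neutrophil markers, 6 were higher, 5 not called and 1, Lcn2, lower in contact, as was Mmp8, which is not on that list. All genes tested had 21.4% higher and 16.1% lower. Lcn2, whose human protein binds MMP9, stood at 41.8, 34.0 and 35.2 FPKM in contact and 143, 94.8 and 99.3 FPKM in transwell libraries (log2 change -1.72 ± 0.16, edgeR adjusted p = 3.1e-05). Lcn2 was singled out after its values were seen. Elane, the neutrophil elastase gene, stood at 31.2, 35.5 and 21.2 FPKM in contact and 6.08, 2.68 and 3.01 FPKM in transwell libraries (log2 change 2.78 ± 0.29, adjusted p = 6.3e-05), and Mpo rose by 2.61 ± 0.37. Among the neutrophil markers Cxcr2 (2.29) and Retnlg (2.90) rose as well. So did Prtn3 (1.20, adjusted p = 0.015) and Csf3r (0.71, adjusted p = 4.8e-05), named with the remaining markers after their values were seen. The 5 not called were S100a8 (-0.22, adjusted p = 0.52), S100a9 (0.35, adjusted p = 0.46), Ltf (0.35, adjusted p = 0.49), Camp (0.49, adjusted p = 0.24) and Ngp (0.74, adjusted p = 0.2). Ly6g, a surface marker of mature neutrophils, had 7 counts in contact and 5 in transwell libraries in all. Transwell replicate 1 was the highest of its group for Elane and Mpo, and for Mmp8 it lay between the other two.

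The macrophage markers did not move with Mmp12 as a set. Fcgr1 (-1.91), Adgre1 (-1.20) and Cd68 (-0.70) were lower in contact and Cd14 (1.49) was higher, beside -1.27 for Mmp12.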
